A study of Mus musculus with 4 samples.

Results

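Open-chromatin peak lists made from sorted retinal endothelial cells, the cells that line blood vessels, were examined at 43 genes of rod and cone photoreceptors, the light-sensing neurons of the retina. The 43 genes are a named list of photoreceptor genes that was drawn up with earlier results of these data known, and all 43 were found among the 21627 protein-coding genes of the autosomes and X in the RefSeq gene table on GRCm38.p6, the build also called mm10. For each gene, every peak that overlapped the gene body plus 10 kb on each side, called the locus here, was taken from each list, and a peak within 1 kb of either end of the gene was called a gene-end peak. Because a peak near a gene can belong to its neighbour, peaks were also counted after leaving out those within 1 kb of an end of a protein-coding gene outside the list. Those that remain are called own peaks. For the comparison with all genes, an own peak is 1 at no end of any other protein-coding gene.

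Chromatin accessibility was read by ATAC-seq, where a transposase loaded with sequencing adapters marks DNA that is free of packed nucleosomes, and each library used 2000 endothelial cells sorted by FACS from the retina. All 4 libraries came from C57BL/6 mice with P16 in the titles, which by usual notation is the postnatal day, and no drug or other exposure beyond the sort is named. The genotype was control in 2 libraries and Zeb1 knockdown in the other 2, whose titles read Zeb1-CKO. Zeb1 is a zinc-finger repressor that binds E2-boxes. The labels used here do not give the driver of the conditional allele, the age at which it acted, the surface markers used in the sort, or whether each library was 1 animal or a pool. The spread within a group may therefore be technical. The replicate numbers 1 and 2 come from the titles, and what a number stands for, such as a sort, a litter or a day, is not given.

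Rods and cones turn light into an electrical signal in a stack of membrane discs, the outer segment. An opsin activates transducin, transducin activates a phosphodiesterase that destroys cyclic GMP, and cyclic-GMP-gated channels close. The homeodomain factors Otx2 and Crx, the leucine-zipper factor Nrl and the nuclear receptor Nr2e3 set the rod program, and Crx and Otx2 bind sites with the core TAATCC. Endothelial cells are not known to use these genes for phototransduction, and rods are by far the most abundant cells of the mouse retina. In a bulk library, more cells of a type and more signal per cell cannot be told apart.

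The lists differed in length, with 7608 peaks in control 1, 13672 in control 2, 13689 in knockdown 1 and 19886 in knockdown 2. Control 1 stood apart with the shortest list. Read depth is unknown, and a missing peak and a shortage of reads cannot be told apart. Of the 20 endothelial marker genes, 13 had an own locus peak in control 1 and all 20 in each other library. The shares of all loci were 23.7% in control 1, 39.3% in control 2, 39.6% in knockdown 1 and 47.8% in knockdown 2. At gene ends, every library held a peak for 4 of the 20 markers, Cdh5, Tie1, Clec14a and Cldn5. That share of 20% was near the 20.9% of all genes. For 10 of the 20 markers, no library held a gene-end peak (51.5% of all genes). Zeb1 itself had a gene-end peak in every library but control 1, so the peak lists do not check the genotype. With 2 libraries against 2, a two-sided exact permutation test has 6 arrangements and cannot go below p = 0.33, so no gene could be called by genotype or replicate number, and the counts given here are descriptions.

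In the lists as deposited, photoreceptor genes carried peaks mainly in the libraries numbered 2, of either genotype. With lists of equal length, given below, the gene-end count of knockdown 2 was near that of control 1. A gene-end peak was present for 4 of the 43 genes in control 1, 18 in control 2, 5 in knockdown 1 and 17 in knockdown 2. Over all protein-coding genes the shares with a gene-end peak were 22, 38.5, 39.5 and 45.2% in the same order, so the photoreceptor shares of 9.3 and 11.6% in the libraries numbered 1 were below the background, and those of 41.9 and 39.5% in the libraries numbered 2 were near it. With own peaks only, the contrast was complete: 0 genes in control 1, 14 in control 2, 0 in knockdown 1 and 12 in knockdown 2, against 14.7, 27.2, 27.8 and 32.7% of all genes. Control 2 and knockdown 1 had lists of nearly equal length, yet 14 photoreceptor genes had an own gene-end peak in control 2 and not in knockdown 1 (3.78% of all genes), and 0 had the reverse (4.38% of all genes).

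The members with a gene-end peak in both libraries numbered 2 and in neither numbered 1 were 8 in number. They were Gnat1, Guca1b, Pde6b, Pde6g, Prom1, Prph2, Rcvrn and Samd7, or 18.6% of the 43 genes, and 2.92% of all genes had that pattern. The pattern in both knockdown libraries and neither control was met by 1 gene, Tulp1, against 3.8% of all genes. No photoreceptor gene had it in both controls and neither knockdown (0.0324% of all genes), or in both libraries numbered 1 and neither numbered 2 (0.0786%). Reep6, Rom1, Rpgrip1 and Gnat2 had one in every library (20.9% of all genes), in each case a peak that also lies at the end of a neighbouring gene. A gene-end peak in control 2 alone was found for Crx, Cngb1, Slc24a1, Impg1, Cplx4 and Kcnv2, and in knockdown 2 alone for Rp1l1, Pde6a, Impdh1 and Aipl1. The other 20 photoreceptor genes had none in any library (51.5% of all genes). The share of all genes with a peak in control 2 alone or knockdown 2 alone is not given here. Of all gene-end regions, merged over the 4 libraries, 3.18% were in control 2 alone and 10.4% in knockdown 2 alone.

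Over the whole loci the same division was seen. A peak was present in 15 loci in control 1, 36 in control 2, 20 in knockdown 1 and 35 in knockdown 2, against 35.4, 53.9, 54.6 and 61.7% of all gene loci. Own peaks were found in 6, 30, 8 and 27 loci in the same order, against 23.7, 39.3, 39.6 and 47.8% of all loci. Peaks only in both libraries numbered 2 were a feature of 12 loci, 27.9% (3.19% of all loci), and the count was 17, or 39.5%, with own peaks (3.61%). This pattern is counted by gene, so both libraries need not hold the same region. With own peaks, Pde6a, Reep6 and Rp1l1 had the pattern but no region held by both. Without control 1, the short list, the counts were 8 gene ends and 13 loci. Leaving out a library drops its condition from the pattern, so these counts could not fall and do not check the pattern against the short list. Peaks in all 4 libraries were found in 14 loci (32.1% of all loci), and in 5 with own peaks, those of Abca4, Cngb1, Impdh1, Fscn2 and Prph2 (19.9%). Opn1sw was the 1 locus with peaks in both knockdown libraries and neither control (3.96% of all loci), and the 4 genes Otx2, Opn1mw, Pde6c and Impg2 had no locus peak in any library (34.2% of all loci).

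**Figure D1:**
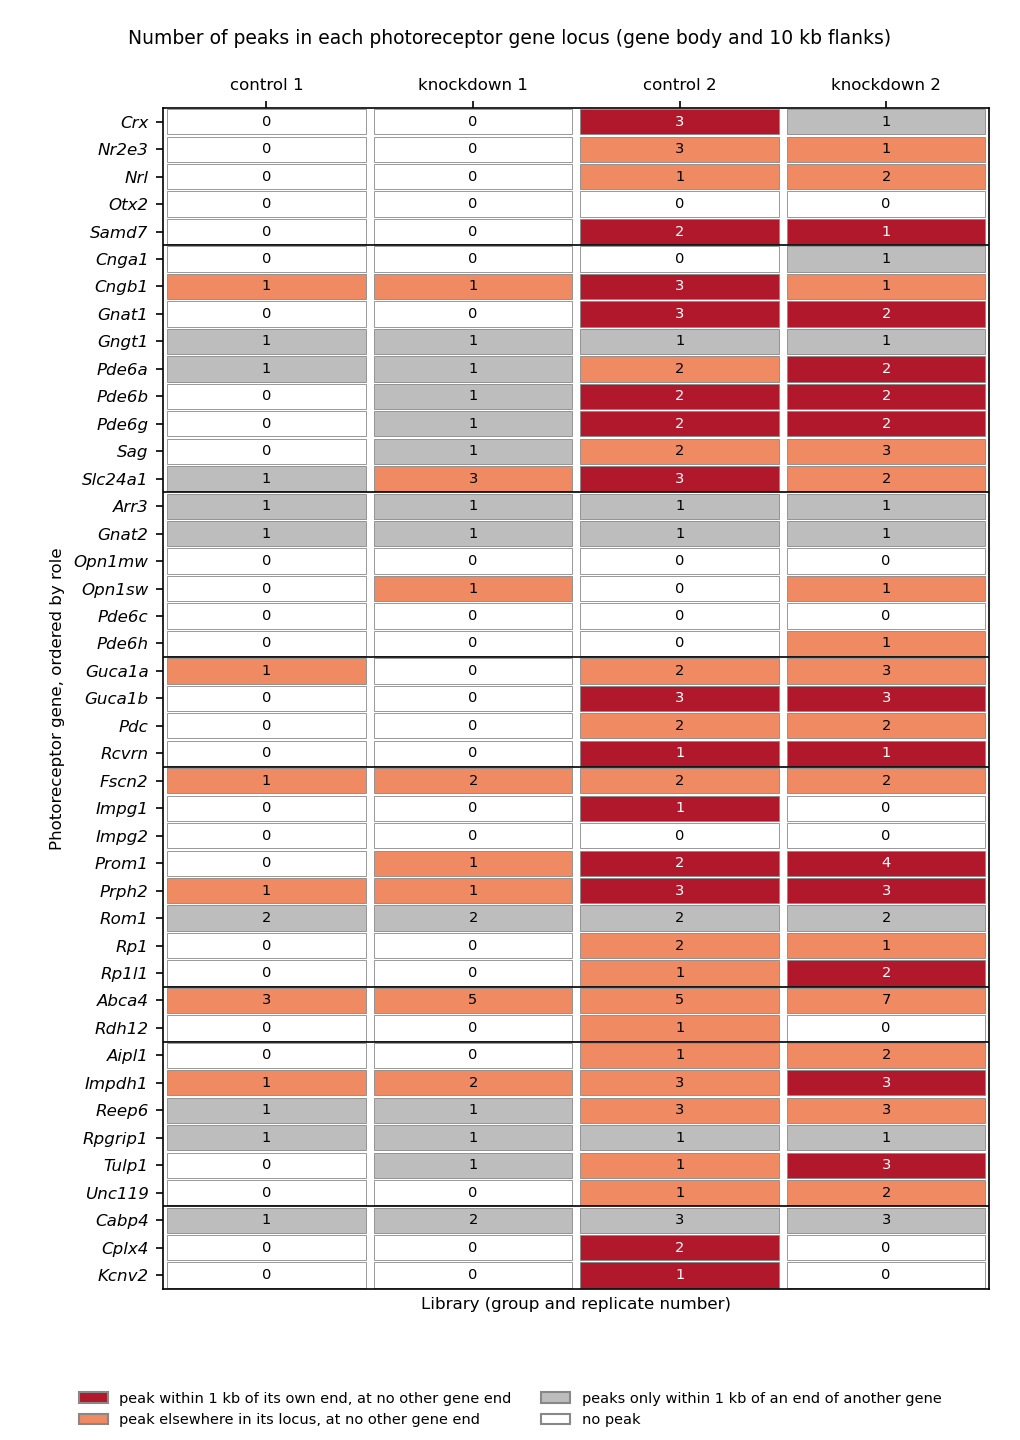
Number of peaks in the locus of each of the 43 photoreceptor genes (rows, ordered by role) in each library (columns, with the libraries numbered 1 on the left). Dark red marks an own peak within 1 kb of the gene's end, light red an own peak elsewhere in the locus, grey peaks only at an end of another gene and white no peak. No cell of the 2 columns for libraries numbered 1 is dark red, against 14 in control 2 and 12 in knockdown 2.

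The promoter sequences below are windows, covered in whole or in part by these peaks, at the starts of some members with a peak only in libraries numbered 2. Rom1, whose start was covered in all 4, is shown for contrast. The sequences come as fixed windows, and the covered part is not marked. They come from RefSeq, GRCm38.p6, run 5′ to 3′ on the gene's strand from 250 bases before to 50 after the annotated start, and capitals mark TAATCC (the Crx and Otx2 core), TGCTGA (an Nrl partial site), CAGGTG (the E2-box) and GGGCGG (the GC box of many broadly used promoters), or their reverse complements. None of these 4 motifs overlapped another in the sequences shown. Peaks covered 167 bases of the Pde6b window in control 2 and 164 in knockdown 2, and 173 of the Crx window in control 2. The Unc119 window covered in both libraries numbered 2 is not shown, and Crx was taken from windows covered in 1 library that hold TAATCC. Of all 14 member windows covered in any library numbered 2 and neither numbered 1, 6 (42.9%) held TAATCC, against 6.78% of all windows with that pattern. Of all 38 member windows, covered or not, 13 (34.2%) held it, so most of the excess over other genes did not depend on cover.
Samd7 (chr3:30746043-30746342, plus strand, both libraries numbered 2): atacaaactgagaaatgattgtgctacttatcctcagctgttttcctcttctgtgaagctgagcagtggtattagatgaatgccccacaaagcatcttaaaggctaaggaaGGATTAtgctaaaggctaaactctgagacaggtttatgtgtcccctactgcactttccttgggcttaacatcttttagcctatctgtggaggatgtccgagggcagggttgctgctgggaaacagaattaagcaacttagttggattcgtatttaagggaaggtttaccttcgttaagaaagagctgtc
Sag (chr1:87803430-87803729, plus strand, both libraries numbered 2): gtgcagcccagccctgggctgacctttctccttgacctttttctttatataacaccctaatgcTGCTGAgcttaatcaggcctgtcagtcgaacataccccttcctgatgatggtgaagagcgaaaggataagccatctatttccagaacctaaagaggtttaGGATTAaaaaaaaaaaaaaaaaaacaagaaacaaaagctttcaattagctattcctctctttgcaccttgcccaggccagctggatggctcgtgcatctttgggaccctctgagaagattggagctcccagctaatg
Pde6b (chr5:108388123-108388422, plus strand, both libraries numbered 2): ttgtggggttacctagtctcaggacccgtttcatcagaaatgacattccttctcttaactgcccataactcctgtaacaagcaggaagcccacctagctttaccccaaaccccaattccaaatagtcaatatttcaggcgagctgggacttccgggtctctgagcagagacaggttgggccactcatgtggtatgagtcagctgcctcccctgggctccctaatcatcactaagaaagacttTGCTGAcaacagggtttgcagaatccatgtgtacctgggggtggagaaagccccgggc
Prph2 (chr17:46910228-46910527, plus strand, both libraries numbered 2): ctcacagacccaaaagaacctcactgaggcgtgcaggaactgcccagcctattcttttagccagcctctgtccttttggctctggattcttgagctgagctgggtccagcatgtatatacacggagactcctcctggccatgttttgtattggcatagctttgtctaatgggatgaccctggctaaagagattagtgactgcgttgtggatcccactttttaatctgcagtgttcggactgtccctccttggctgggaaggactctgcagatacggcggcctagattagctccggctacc
Crx (chr7:15879906-15880205, minus strand, control 2 alone): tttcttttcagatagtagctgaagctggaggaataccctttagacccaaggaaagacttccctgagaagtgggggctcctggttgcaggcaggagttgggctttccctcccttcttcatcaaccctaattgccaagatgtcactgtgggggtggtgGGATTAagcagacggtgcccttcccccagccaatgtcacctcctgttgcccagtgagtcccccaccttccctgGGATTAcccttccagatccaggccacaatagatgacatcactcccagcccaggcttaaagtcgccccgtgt
Rom1 (chr19:8929307-8929606, minus strand, all 4 libraries): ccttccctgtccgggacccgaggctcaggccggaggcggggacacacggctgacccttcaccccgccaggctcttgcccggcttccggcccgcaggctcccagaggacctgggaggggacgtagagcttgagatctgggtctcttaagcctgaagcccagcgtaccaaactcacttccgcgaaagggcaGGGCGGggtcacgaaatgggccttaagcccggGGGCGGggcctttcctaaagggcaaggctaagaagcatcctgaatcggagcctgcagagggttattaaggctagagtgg
Samd7 and Sag each held a TAATCC match on the reverse strand, Crx held a pair of them, and Rom1 held none but had 2 GC boxes. Sag and Pde6b held the Nrl partial site, and the Prph2 window held none of the 4.

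Of the 43 genes, 31 had 1 or more windows in the promoter table, 38 windows in all of 21044. A peak covered 1 or more bases of 1 window in control 1, 11 in control 2, 2 in knockdown 1 and 12 in knockdown 2, against 20.2, 35.9, 37.4 and 42% of all windows. The windows covered in both libraries numbered 2 and neither numbered 1 were those of Pde6b, Prph2, Sag and Samd7 and 1 of Unc119 (2.76% of all windows). Counting any library numbered 2 and neither numbered 1 gave 14 windows of 12 genes (7.99% of all windows). The Rom1 window was the 1 covered in all 4 libraries (19.2% of all windows), and 0 were covered in both knockdown libraries and neither control (3.82%). TAATCC on either strand was found in 13 of the 38 windows, 34.2%, and in 6.38% of all windows. The other motifs differed less or went the other way: TGCTGA was in 26.3% (18.1% of all), CAGGTG in 21.1% (19.9%) and GGGCGG in 15.8% (46.7%). Median GC content was 51.5% in the photoreceptor windows and 56.7% in all windows, so the lower share with a GC box goes with a lower GC content. A match describes the letters only, and binding was not measured.

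**Figure D2:**
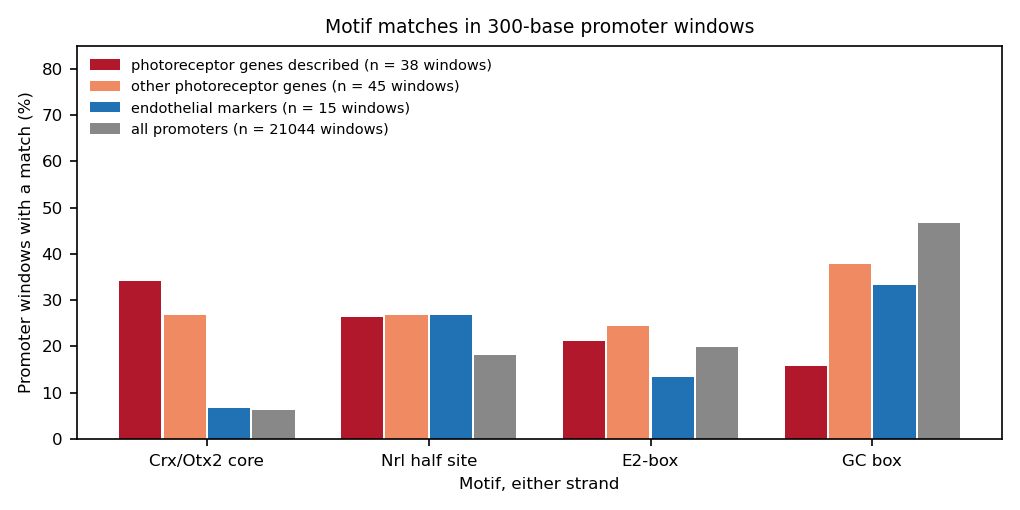
Share of 300-base promoter windows (y axis, %) with at least 1 match on either strand to each of 4 motifs, for the photoreceptor genes described, another list of photoreceptor genes, endothelial markers and all promoters. The bars for the Crx and Otx2 core stand at 34.2 and 26.7% in the photoreceptor lists, 6.67% for endothelial markers and 6.38% for all promoters.

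In the values that follow, fold is the authors' fold enrichment of a peak over its own library's background, and rank is the percent position of a peak in its own list when ordered by −log10 p, with the strongest near 0. Both describe a peak within its list and are not compared between libraries as levels.

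Among the 5 transcription regulators, 4 had own locus peaks in control 2 and 3 in knockdown 2 (39.3 and 47.8% of all loci), and 0 in either library numbered 1 (23.7 and 39.6%). Samd7, a Polycomb-associated regulator that represses non-rod genes in rods, had a peak over its start in control 2 (chr3:30746056-30746450, fold 4.99, rank 53.0%) and in knockdown 2 (chr3:30746011-30746487, fold 7.01, rank 16.9%). The smaller peak lay wholly inside the larger, sharing 395 bp. Crx, the homeodomain activator of photoreceptor genes, had a start peak in control 2 alone (chr7:15879808-15880078, fold 6.48, rank 24.8%) and another 1451 bp past its far end in the same library (fold 7.42, rank 18.3%). A further region in the Crx locus, in control 2 at fold 5.27 and in knockdown 2 at fold 5.69, lies at the end of the antisense neighbour Crxos. The Crx start was therefore covered in 1 library only.

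Nrl, which commits precursors to the rod fate, had a gene-body region in control 2 (chr14:55521007-55521440, fold 3.73, rank 93.7%) and knockdown 2 (chr14:55521098-55521486, fold 5.45, rank 40.3%). It lies 2766 bp from the annotated start, and knockdown 2 had a second Nrl peak 1876 bp outside the gene (fold 4.75). Nr2e3, which activates rod genes and represses cone genes, had a body region in control 2 at fold 5.06 and in knockdown 2 at fold 3.57, plus a pair of peaks in control 2 alone at folds of 5.84 and 5.94. The knockdown 2 peak of Nr2e3 was near the foot of its list, at rank 95.2%. Otx2, which acts upstream of Crx, had no peak.

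The 9 rod transduction genes had own gene-end peaks in 0 libraries numbered 1, for 5 genes in control 2 and for 4 in knockdown 2, or 55.6 and 44.4%, against 27.2 and 32.7% of all genes. Gnat1 encodes the rod transducin alpha subunit, and a peak over 1 of its gene ends was present in control 2 (chr9:107679548-107680115, fold 3.85, rank 89.9%) and knockdown 2 (chr9:107679599-107680167, fold 3.62, rank 92%). Those peaks shared 517 bp although both were weak in their lists. The Gnat1 locus held 3 more peaks, each in 1 library, at folds of 5.34 and 5.46 in control 2 and 5.76 in knockdown 2, each above the shared region's fold in the same list.

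The phosphodiesterase genes had their own peaks in control 2 and knockdown 2 only. Pde6b, the beta catalytic subunit, had a start peak in control 2 (chr5:108388256-108388527, fold 5.09) and knockdown 2 (chr5:108388259-108388458, fold 4.00), and control 2 alone had a second peak at the far end of the gene (fold 5.12). Pde6g, the inhibitory gamma subunit, had a gene-end peak in control 2 that was 1251 bp wide (chr11:120452251-120453501, fold 5.14) and contained that of knockdown 2 (chr11:120452274-120452519, fold 4.75). Pde6a, the alpha subunit, had a gene-end peak in knockdown 2 alone at fold 4.29 and a flanking peak in control 2 alone at fold 4.10. The Pde6a locus also took in a region at the end of Slc26a2 that all 4 libraries held, with folds of 3.44 in control 1, 5.67 in control 2, 5.24 in knockdown 1 and 7.14 in knockdown 2. That neighbour peak is the kind that the own-peak count leaves out.

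Sag, rod arrestin, which switches off activated opsin, had no gene-end peak by the outermost ends of the gene table, but a region over the start in the promoter table was held by control 2 (chr1:87803344-87803882, fold 6.43, rank 21.6%) and knockdown 2 (chr1:87803340-87803990, fold 6.64, rank 17.0%). These were among the stronger photoreceptor peaks of both lists. A second Sag region, 3558 bp outside the gene, was also held by both libraries numbered 2, at folds of 4.27 and 3.92. Cngb1, the beta subunit of the rod cyclic-GMP-gated channel, had a start peak in control 2 alone at fold 3.90 and rank 91.5%, and Slc24a1, the rod sodium, calcium and potassium exchanger, had 1 in control 2 alone at fold 3.44 and rank 99.3%. Both were at the foot of the list. Cnga1, the alpha channel subunit, and Gngt1, the rod transducin gamma subunit, had no own peak: the Cnga1 locus held 1 knockdown 2 peak at the end of Nipal1, and the Gngt1 locus 1 region at the end of Gng11 in all 4 libraries.

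All 4 genes of calcium feedback and modulation had own locus peaks in both libraries numbered 2, where 39.3 and 47.8% of all loci did. Guca1a and Guca1b encode the guanylate cyclase activating proteins and lie side by side, so their loci share regions and are not separate counts. The region 420 bp inside the Guca1b end was held by control 2 (chr17:47385151-47385406, fold 5.94, rank 33.1%) and knockdown 2 (chr17:47385114-47385475, fold 6.13, rank 28.7%), the first lying within the second. A region in the Guca1a body, 1149 bp from its start, was held by the same 2 libraries at folds of 4.98 and 5.36, and knockdown 2 alone covered the Guca1a start at fold 4.42. Control 1 held a single peak in the Guca1a body, at fold 3.35 and rank 89.9%, where no other library had 1.

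Rcvrn, recoverin, a calcium sensor that restrains opsin kinase, had a gene-end peak in control 2 (chr11:67695184-67695383, fold 4.59, rank 71.1%) and knockdown 2 (chr11:67695181-67695380, fold 3.67, rank 92.4%). The 2 peaks, called separately, shared 197 bp of their 200. Pdc, phosducin, which binds transducin beta and gamma subunits, had no gene-end peak but 2 regions in both libraries numbered 2, with folds of 5.71 in control 2 and 4.67 in knockdown 2 for the one 6286 bp outside the gene and of 5.15 and 4.42 for the one 2901 bp inside it. For Guca1b, Pdc and Rcvrn, neither library numbered 1 held any peak in the locus.

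Of the 8 outer-segment and matrix genes, 3 had own gene-end peaks in control 2 and 3 in knockdown 2, or 37.5%, near the 27.2 and 32.7% of all genes. None had 1 in a library numbered 1 (14.7 and 27.8% of all genes). Prph2, peripherin, which shapes the disc rim, had a start peak in control 2 (chr17:46910285-46910489, fold 5.32, rank 37.1%) and knockdown 2 (chr17:46910337-46910575, fold 4.53, rank 53.2%). A second region 1778 bp inside Prph2 was held by all 4 libraries, with folds of 3.06 in control 1, 4.99 in control 2, 3.92 in knockdown 1 and 5.40 in knockdown 2. The start and the body of Prph2 therefore differed in which libraries held them.

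Prom1, prominin, a membrane protein of disc formation that other cell types also use, had gene-end peaks in control 2 (fold 3.79) and knockdown 2 (fold 3.75) that did not overlap each other. Its strongest region lay 13707 bp from the start and was held by control 2 (chr5:44080779-44081061, fold 8.19, rank 11.4%) and knockdown 2 (chr5:44080694-44080994, fold 6.09, rank 33.1%). A further Prom1 region, 7407 bp from the start, was held by knockdown 1 (fold 4.47) and knockdown 2 (fold 3.94) and by neither control, so Prom1 did not divide by replicate number throughout. The control 2 peak at fold 8.19 had the best rank of any peak in the regions held by both libraries numbered 2 alone. Rp1, a microtubule protein of the axoneme, had a body region in control 2 at fold 6.03 and knockdown 2 at fold 4.12, 51286 bp from the nearer gene end. Its relative Rp1l1 had a gene-end peak in knockdown 2 alone at fold 3.68, and Impg1, a proteoglycan of the matrix between photoreceptors, had 1 in control 2 alone at fold 5.51. Fscn2, an actin-bundling protein, had a flank region 9515 bp outside the gene in all 4 libraries, and Impg2, the relative of Impg1, had no peak at all. Rom1, the partner of Prph2 in the disc rim, had a region over its start that it shares with Eml3, at folds of 3.10 in control 1, 7.24 in control 2, 3.89 in knockdown 1 and 5.73 in knockdown 2. Fscn2, Impg2 and Rom1 thus showed no division by replicate number in which libraries held a peak.

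In retinoid handling, Abca4, the flippase that clears retinal from discs, differed from most of the group. Its gene body of 136 kb held 3 peaks in control 1, 5 in control 2, 5 in knockdown 1 and 7 in knockdown 2, and none was at a gene end. The region chr3:122078050-122078604 was in all 4 libraries, with folds of 5.11 in control 1, 7.85 in control 2, 6.65 in knockdown 1 and 7.74 in knockdown 2. The region chr3:122130766-122131926 was as widely held, with folds of 4.6, 6.73, 6.76 and 8.68 in that order, and ranks between 3.99% in knockdown 2 and 24.6% in control 1. Abca4 thus had internal regions ranked at 24.6% or better in every list while its start had no peak in any. Rdh12, a retinol dehydrogenase, had 1 body peak in control 2 alone at fold 4.23.

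The 6 genes of folding, trafficking, cilium and metabolism gave own locus peaks for 5 genes in control 2 and 5 in knockdown 2 (39.3 and 47.8% of all loci), and for 1 gene, Impdh1, in each library numbered 1 (23.7 and 39.6%). Unc119, a lipid-binding carrier of transducin, had a region over 1 of its annotated starts in control 2 (chr11:78346476-78346760, fold 6.52, rank 19%) and knockdown 2 (chr11:78346429-78346722, fold 5.95, rank 29.9%). Aipl1, a chaperone for the phosphodiesterase, had a body region in control 2 at fold 3.97 and knockdown 2 at fold 4.39. Both genes had no peak in the libraries numbered 1.

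Tulp1, a trafficking protein of the connecting cilium, had a start peak in knockdown 2 alone (chr17:28365081-28365404, fold 5.11) and a flank region in control 2 (fold 3.68) and knockdown 2 (fold 4.6). Its other end, 488 bp from a region shared with Tead3, was held by knockdown 1 (fold 3.86) and knockdown 2 (fold 4.09). That shared region alone placed Tulp1 in the knockdown-only pattern. Impdh1, an enzyme of guanine nucleotide synthesis used in most cells, had a region over 1 of its starts in every library but control 1 and another 1771 bp inside in every library but knockdown 1. Reep6, a rod endoplasmic-reticulum protein, had its gene-end region at the end of Pcsk4 in all 4 libraries, with folds of 3.47 in control 1, 8.45 in control 2, 7 in knockdown 1 and 7.95 in knockdown 2, while its own peaks were 1 in the body in control 2 and 1 in the flank in knockdown 2. Rpgrip1, a scaffold of the connecting cilium, had 1 region at its low-coordinate end, shared with Hnrnpc, an RNA-binding protein used in all cells, with folds of 7.10, 10.2, 9.58 and 10.6 in control 1, control 2, knockdown 1 and knockdown 2. Its annotated start lies 6357 bp away.

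At the synapse and inner segment, Kcnv2, a potassium channel subunit, and Cplx4, a complexin of ribbon synapses, had gene-end peaks in control 2 alone, at folds of 6.44 and 5.09. Cabp4, a calcium-binding protein of the rod synapse, had only peaks at the ends of other genes, among them 1 at Gpr152 held by control 2 (fold 7.61) and knockdown 2 (fold 5.36). No gene of these 3 had an own peak in knockdown 2.

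The 6 cone transduction genes had 0 own gene-end peaks in every library, and own locus peaks for 0 genes in both controls, 1 in knockdown 1 and 2 in knockdown 2, against 23.7, 39.3, 39.6 and 47.8% of all loci in control 1, control 2, knockdown 1 and knockdown 2. Opn1sw, the short-wavelength opsin, had a flank region 8067 bp from its end in knockdown 1 (fold 4.65) and knockdown 2 (fold 3.91), and Pde6h, the cone inhibitory subunit, had a flank peak in knockdown 2 alone (fold 4.64). Gnat2, cone transducin alpha, had a gene-end region in all 4 libraries that it shares with Ampd2 and Gm12500, with its annotated start 6165 bp away, and Arr3, cone arrestin, had a region at Kif4 and Pdzd11 in all 4. Opn1mw and Pde6c had no peak. The difference between the cone and rod genes was not tested.

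**Figure D3:**
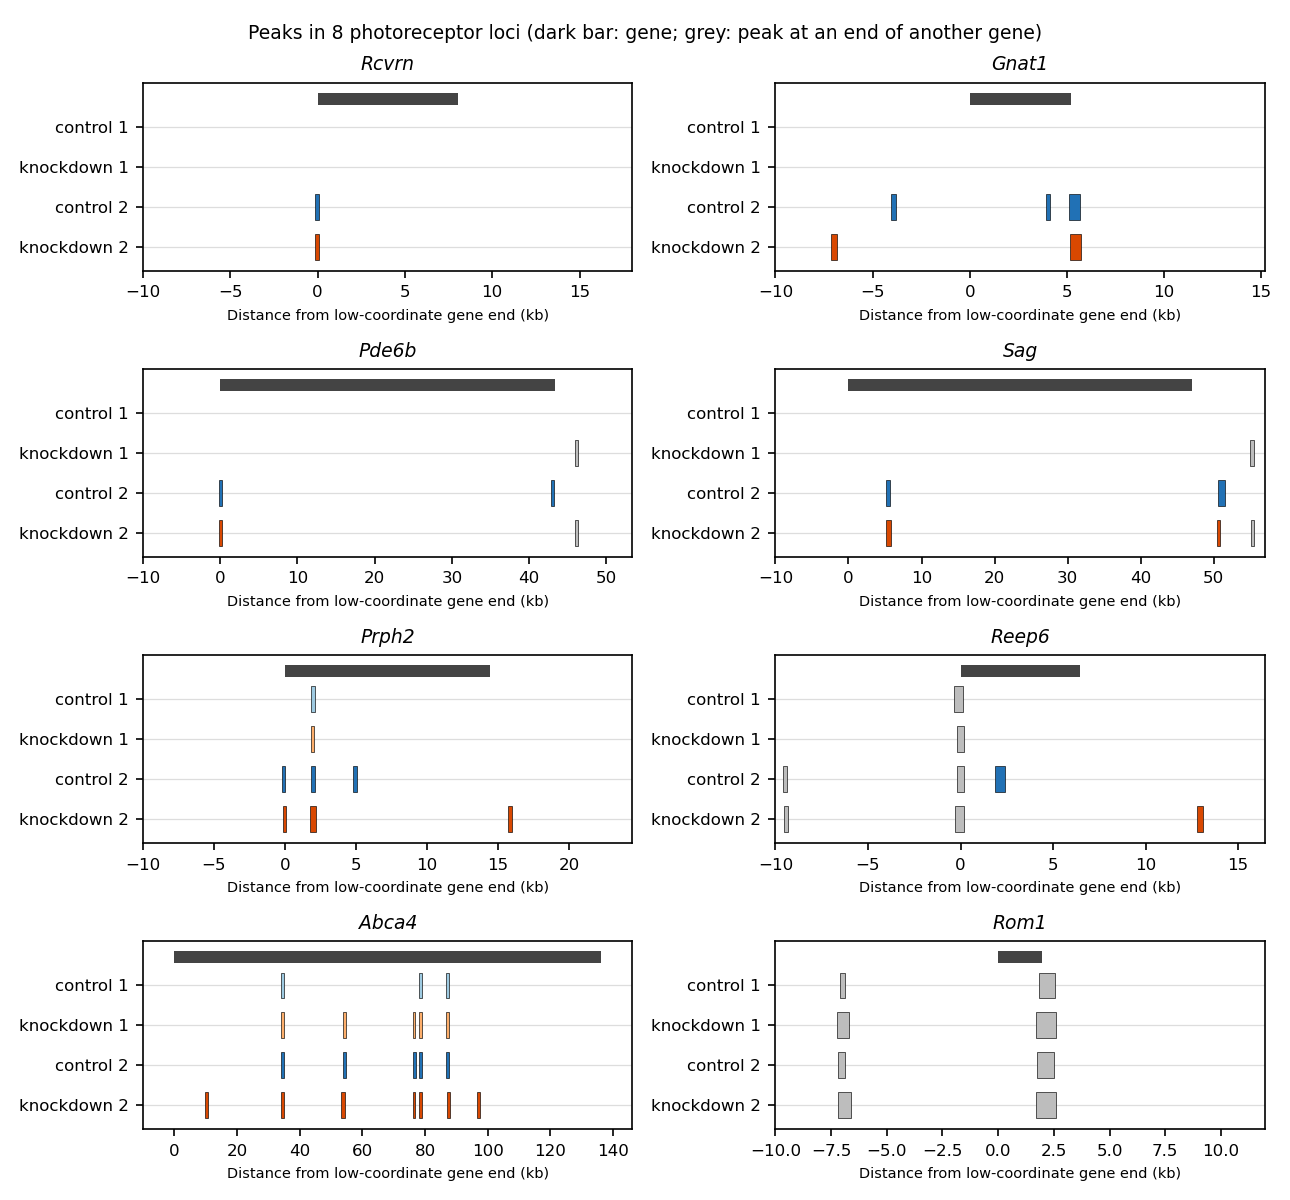
Peaks of each library (rows) along 8 photoreceptor loci, with distance from the low-coordinate gene end in kb on the x axis, the gene as a dark bar, own peaks in colour and peaks at an end of another gene in grey. At Rcvrn, Gnat1, Pde6b and Sag the coloured peaks sit in the rows of control 2 and knockdown 2 only, at Prph2 an internal region is added in all 4 rows, Abca4 has 3 internal regions in all 4 rows, and the gene-end peaks of Reep6 and Rom1 are grey and in all 4 rows.

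When overlapping peaks of the 4 libraries were merged, 96 of 25263 regions fell in photoreceptor loci. Of these, 22 lay at an end of a gene outside the list, 20 at a member's own end alone and 54 at no gene end. All 20 regions at own ends were in a library numbered 2 and in neither numbered 1, and 19.9% of all regions at a gene end were. The 20 leave out regions at a member's end that also lie at an end of a gene outside the list, of which 4 were in all 4 libraries. The background of 19.9% keeps such shared ends, so the shares are not of like sets. Of the 54 away from gene ends, 37 (68.5%) were in a library numbered 2 and in neither numbered 1, against 48.4% of the 15783 regions away from gene ends. Within the 54, 12 were held by both libraries numbered 2 and neither numbered 1 (22.2%, against 8.43%), and 14 by control 2 alone (25.9%, against 10.2%). Regions of knockdown 2 alone numbered 11 (20.4%), below the 29.9% of all such regions. All 4 libraries held 6 (11.1%, against 8.23%), and both knockdown libraries without a control held 2 (3.7%, against 11.3%), those in Prom1 and near Opn1sw.

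Of the 22 regions at ends of genes outside the list, all 4 libraries held 10 (45.5%), near the 40.3% of all regions at a gene end. A library numbered 2 and neither numbered 1 held 7 of the 22 (31.8%, against 19.9%). The 17 own regions with a peak in a library numbered 1 fell in 9 genes: 5 in Abca4, 3 in Impdh1, 2 each in Fscn2 and Slc24a1, and 1 each in Cngb1, Prph2, Prom1, Opn1sw and Guca1a.

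**Figure D4:**
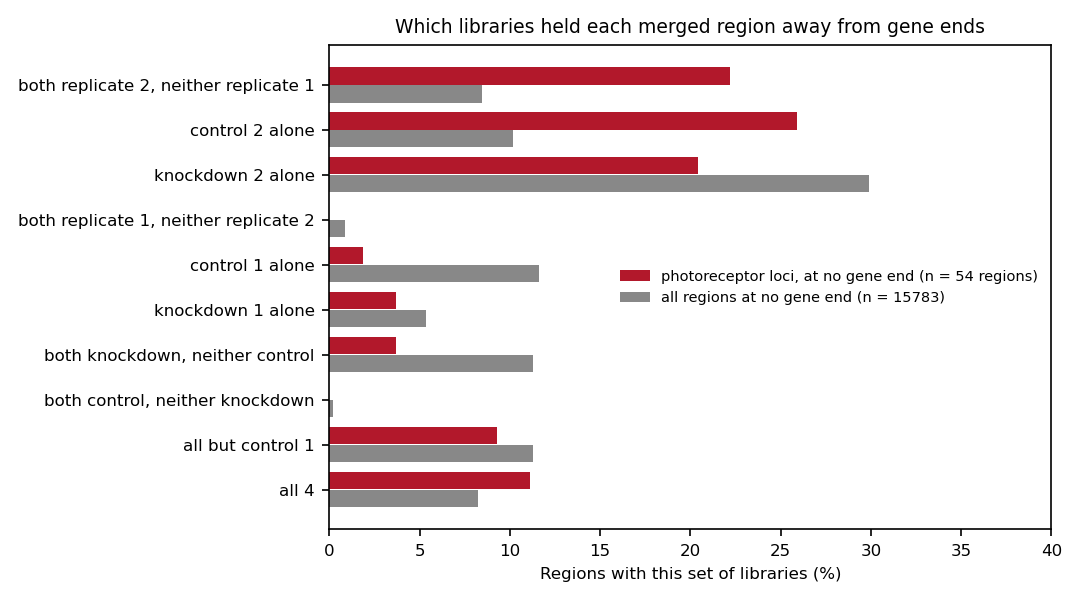
Share of merged regions away from gene ends (x axis, %) held by each set of libraries, for the 54 such regions in photoreceptor loci (red) and for all 15783 (grey); 5 sets with few or no regions are not drawn. Red exceeds grey for both libraries numbered 2 (22.2 against 8.43%), for control 2 alone (25.9 against 10.2%) and, by less, for all 4 libraries (11.1 against 8.23%), and falls below it for knockdown 2 alone (20.4 against 29.9%).

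The regions in photoreceptor loci held by both libraries numbered 2 and neither numbered 1 were 22 in number and touched 20 of the 43 genes. Of these regions, 3 lay at an end of a gene outside the list, and Crx, Reep6 and Cabp4 were touched by these alone. Guca1a and Guca1b were touched by the same regions. The share of all genes touched by such a region is not given here. The peaks of the 22 regions overlap by construction, and the shared stretch was a median of 91.9% of the shorter peak. A further 24 regions in photoreceptor loci were in control 2 alone (25%, against 7.53% of all regions). Those in knockdown 2 alone numbered 18 (18.8%, below the 22.6% of all regions). The peaks of the 22 shared regions were of middle strength, with a median rank of 51.8% in control 2 and 56.1% in knockdown 2. They made up 1.14% of the 1936 regions with that pattern, while photoreceptor loci held 0.38% of all merged regions. Over all own regions the median fold was 3.71 in control 1, 5.09 in control 2, 3.95 in knockdown 1 and 4.6 in knockdown 2, each below the median of its whole list (3.91, 5.19, 4.56 and 5.02).

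List length moves with the counts, so each list was also limited to its 7608 strongest peaks. Own gene-end peaks were then present for 0 genes in control 1, 9 in control 2, 0 in knockdown 1 and 2 in knockdown 2, against 14.7, 17.9, 17.9 and 17.4% of all genes. The 2 genes of knockdown 2 are 4.65% of the 43, below that background, and the 9 of control 2 are 20.9%, near it. With peaks at ends of other genes counted too, the counts were 4 in control 1, 12 in control 2, 2 in knockdown 1 and 5 in knockdown 2. These are 9.3, 27.9, 4.65 and 11.6% of the 43, against 22, 26, 26.5 and 25.7% of all genes. Only the share of control 2 reached its background. Own locus peaks were present for 6, 20, 3 and 11 genes, against 23.7, 25.8, 25.3 and 25.4% of all loci. Of these locus shares, that of control 2 was above the background at 46.5%, that of knockdown 2 near it at 25.6%, and those of control 1 and knockdown 1 below it at 14 and 6.98%. The gene-end pattern of both libraries numbered 2 fell from 8 genes to 2, Guca1b and Samd7 (1.42% of all genes), and the locus pattern from 12 to 6, Gnat1, Guca1b, Prom1, Sag, Samd7 and Unc119 (2.11%). The size of the pattern thus depended on the weaker peaks of the longer lists. Keeping peaks with a −log10 q of at least 3 left 4 genes at gene ends, Guca1b, Pde6g, Prph2 and Samd7 (9.3%, against 3.22% of all genes).

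Between genotypes the counts overlapped. Gene-end peaks were present for 11 ± 9.9 genes in control and 11 ± 8.49 in knockdown libraries (SD, n = 2 each), a difference of 0. Loci with a peak numbered 25.5 ± 14.8 in control and 27.5 ± 10.6 in knockdown libraries (SD, n = 2 each), and the difference of 2 was smaller than either SD. It turned to -0.5 with own peaks only, and to -6 with lists of equal length. Within a replicate number, knockdown minus control was 1 gene end for number 1 and -1 for number 2, and 5 and -1 loci. Tested gene by gene over all 21627 genes, the number of locus peaks gave 0 calls for knockdown against control and 0 for number 2 against number 1 by the exact permutation test, with 0 genes at an unadjusted p under 0.05 and a smallest adjusted p of 1. The lowest p of 0.33 was reached by 2097 genes for genotype and 1893 for replicate number. A Zeb1 effect smaller than the spread between libraries is not detectable here.

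A further list of 43 photoreceptor genes also had more peaks in the libraries numbered 2. Own gene-end peaks were present for 1 gene in control 1, 16 in control 2, 5 in knockdown 1 and 16 in knockdown 2, or 2.33, 37.2, 11.6 and 37.2%, against 14.7, 27.2, 27.8 and 32.7% of all genes. Own locus peaks were present for 14, 28, 12 and 29 genes in the same order. These are 32.6, 65.1, 27.9 and 67.4%, against 23.7, 39.3, 39.6 and 47.8% of all loci. Over loci, the share of control 1 was thus above its background in this list. At gene ends, 10 of the 43 genes had the pattern of both libraries numbered 2 alone (2.42% of all genes). By the strength of the weaker peak the first were Mak, a ciliary kinase, at rank 26.4%, Grk1, the opsin kinase, at 30.0%, and then Cacna2d4, a synaptic calcium channel subunit, at 53.8%, and Cdhr1, a cadherin at the base of the discs, at 54.7%. Ppef2, a photoreceptor phosphatase, and Neurod1, a transcription factor of photoreceptors and other neurons, followed at 72.2 and 73.2%. With peaks at ends of other genes counted too, gene-end peaks in all 4 libraries were found in this list for Cep290, Rgs9bp, Pde6d and Rpgr. These are 9.3% of the list, against 20.9% of all genes. With own peaks only, Rpgr alone had them (2.33%, against 13.7% of all genes). Cep290, Pde6d and Rpgr also serve cilia or membrane traffic in other cells.

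Lists for other retinal cells gave own gene-end peaks for shares below those of all genes in every library, which were 14.7, 27.2, 27.8 and 32.7% in control 1, control 2, knockdown 1 and knockdown 2. Of 24 inner retinal neuron genes, 1, 1, 2 and 3 had 1 in control 1, control 2, knockdown 1 and knockdown 2, and 0 had the pattern of both libraries numbered 2 alone. Of 11 genes of Müller glia and astrocytes the counts were 1, 2, 1 and 1, of 11 mural cell genes 0, 1, 1 and 1, of 10 leukocyte genes 1, 0, 0 and 1, and of 9 pigment epithelium genes 1, 2, 1 and 2. In these 4 lists the pattern of both libraries numbered 2 alone was met by Myh11 of the mural cell genes (9.09%) and Dct of the pigment epithelium genes (11.1%), against 2.42% of all genes. Of the 20 endothelial genes, 4, 8, 7 and 10 had an own gene-end peak, or 20, 40, 35 and 50%, above those of all genes. Robo4 and Eng had the pattern, or 10% of the endothelial genes, also above the 2.42% of all genes. These lists are short, and the difference between lists was not tested. The part that photoreceptor cells or their free chromatin in the sort, the depth of the libraries, or a difference between sorts had in these counts was not tested, and with 1 control and 1 knockdown library per replicate number, the meaning of the number and differences between single libraries cannot be told apart.

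**Figure D5:**
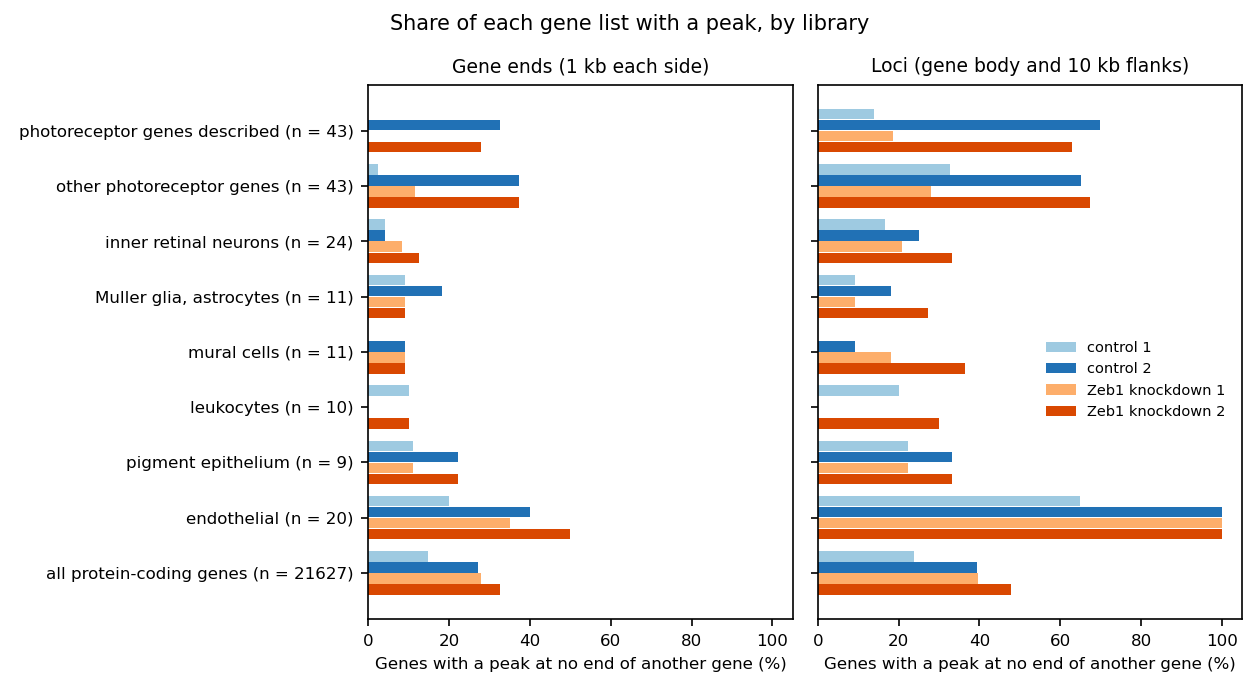
Share of genes with an own peak (x axis, %) at gene ends (left) and in the locus (right) in each library, for the 43 photoreceptor genes described, another photoreceptor list, lists for other cells, and all 21627 protein-coding genes. For the described genes the bars of both libraries numbered 1 are at 0 at gene ends while those of control 2 and knockdown 2 reach 32.6 and 27.9%; the endothelial bars in the locus panel reach 100% in 3 of 4 libraries.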

How the data were processed

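Each library has 1 list of broad peaks on mm10, deposited by the authors and called per library. The submitters' processing notes name MACS2 2.1.1, a peak caller, with bedtools 2.26.0, SAMtools 1.3, Picard 2.9.2, the aligner Bowtie2 2.3.2 and the read trimmer Trimmomatic 0.36. Their settings, any shift for the transposase, and the filter are not given in the sources used here. Fold enrichment, the authors' ratio of a peak to its own library's background, is deposited for every peak. Each also has the authors' −log10 p and −log10 q, and a deposited score that is 10 times the −log10 q, as a whole number limited to 1000. Every −log10 q was above 1. Because lists were called separately, these values rank or filter peaks within a list only.

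Gene coordinates and promoter sequences came from RefSeq tables on GRCm38.p6. The gene table gives both ends of a gene but no strand, so a gene end can be its start or its far end. A gene had a peak with at least 1 bp of overlap with the window, and peaks of the 4 libraries were merged where they overlapped. Python 3.11.15 with pandas 2.3.3, numpy 2.4.6, scipy 1.17.1 and matplotlib 3.10.9 was used, and the counting was tested on simulated data. Per-gene peak numbers were compared with a two-sided exact permutation test and Benjamini-Hochberg adjustment over all genes. The alternatives were a q limit, equal list lengths, other windows, a larger overlap, leaving out each library, and the replicate number as a block. The members, roles and lists were chosen with earlier results of these data known, so no test was made over the members. All members were accounted for, and those described in full were the ones with a gene-end peak in both libraries of a number or a genotype and in neither of the other, or in all 4; members outside that rule were described after their values were seen. In the other lists up to 6 genes per pattern were named, in order of their weaker rank. Peak sequences outside the promoter windows were not used here.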

Additional observations from a re-analysis of the deposited data

How the results depend on the processing

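The count of 8 members with a gene-end peak in both libraries numbered 2 and neither numbered 1 became 4 with a −log10 q of at least 3. It became 2 with lists of equal length. The shares of all genes with the pattern were 3.22 and 1.42% at these settings. The count of members ranged from 8 to 14 when each library was left out in turn (14 without knockdown 2). For loci, the count of 12 became 6 with lists of equal length and ranged from 13 to 17 without each library. The count of 1 member in both knockdown libraries and neither control became 0 with lists of equal length, at gene ends and in loci, 0 at gene ends with own peaks only, and 0 in loci with no flank. Leaving out a library gave 1 to 5 at gene ends (5 without knockdown 1) and 1 to 6 in loci (6 without control 2, 3 without knockdown 1). For each of these patterns, leaving out a library drops its condition, so the count could stay or rise but not fall. The locus difference of 2, knockdown minus control, was reversed to -6 with lists of equal length, to -1 with no flank and to -0.5 with own peaks only. It ranged from -8.5 (without control 1) to 12.5 (without control 2), and was -5.5 without knockdown 2. The gene-end difference of 0 ranged from -7 to 7 in the same way. With the replicate number as a block the differences were 0 at gene ends and 2 in loci, and the smallest p that the block allows was 0.5; with only 2 pairs, and no label saying what a number marks, the libraries share only a number. The cause of these shifts was not tested. Read depth is unknown and limits every statement on a missing peak.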
